A study of Macaca fascicularis with 20 samples.

Results

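The ventricular zone (VZ) and the outer subventricular zone (OSVZ), germinal layers of the visual cortex before birth, were set against each other arm by arm in small RNA libraries of fetal macaques. The comparison rests on 10 libraries, 6 of OSVZ and 4 of VZ, out of 14 libraries with a region. These libraries were chosen by region label. The animals were fetuses of the crab-eating macaque, Macaca fascicularis, with no genotype or treatment named. Set 1 was taken at embryonic day 80 and set 2 at embryonic day 79. In each set a UV laser cut VZ from areas 17 and 18 (VZ_17 and VZ_18), OSVZ from area 18 (OSVZ_18), and an inner, apical band and an outer, basal band of OSVZ from area 17 (OSVZ_17int and OSVZ_17ext), so that every region has 1 library per set. A further 4 libraries came from the cortical plate (CP), the layer of newly arrived neurons, and serve as a reference for direction. The labels name no animals, so it is not known how many fetuses a set comprises, and the p-values reflect spread among libraries that may in part be technical.

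The VZ lines the ventricle and holds apical radial glia, whose cell bodies divide at the ventricular surface. The OSVZ lies further out, is thick in primates, and holds basal radial glia and intermediate progenitors that have left that surface. A miRNA hairpin can yield a mature strand from its 5p arm and another from its 3p arm, and the strand that is loaded silences messenger RNAs through a short seed near its 5' end. Both layers are mixed tissue, and in bulk samples fewer cells of a type and less RNA per cell cannot be told apart. Of the brain miRNAs set down as markers, miR-125b-5p and miR-9-5p were among the most counted arms, whereas miR-124-3p was close to 0, with means of 0.215 CPM in VZ and 0.460 CPM in OSVZ, and miR-128 was not among the arms tested. Levels are in CPM after TMM scaling for library composition, and differences are log2 values of OSVZ minus VZ with the standard error (SE) of the fit.

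Total counts of the 10 libraries were between 3603478 (OSVZ_18 of set 2) and 9517217 (OSVZ_17ext of set 1). The TMM factor of VZ_18 in set 1 was 1.32, against 0.567 to 0.808 for the other germinal libraries of that set. VZ_18 of set 1 had the lowest VZ value for 28 of the 62 abundant arms and VZ_17 of set 2 for 26. The median difference of all 1139 tested arms was 0.12 under TMM, 0.019 under DESeq2 size factors and -0.12 under library totals, so differences are read against that shift.

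Few arms separated the layers. Both arms of miR-92b, a miRNA that holds back intermediate progenitors in mouse cortex, and miR-887-3p were at lower levels in each of the 6 OSVZ libraries than in any VZ library. The arms miR-326-3p, miR-708-5p, miR-720-5p and miR-3676-3p were at higher levels in each OSVZ library than in any VZ library after TMM scaling. As plain shares of library counts both miR-92b arms and miR-887-3p still separated the layers, while these 4 higher arms overlapped between them, and of the 4 only miR-326-3p was apart under DESeq2 size factors. By share, the lowest OSVZ values of these 4 arms were in set 1, and within set 2 all 4 stayed above both VZ libraries. Under TMM such separation was seen for 14 arms with OSVZ above (1.23% of the 1139 tested) and 10 with OSVZ below (0.878%), under library totals for 4 (0.351%) and 8 (0.702%), and under all 3 scalings for 3 (0.263%) and 4 (0.351%). With edgeR's quasi-likelihood test, 1 of 1139 arms passed an adjusted p of 0.05 (0.0878%). It was miR-4271-5p, higher in OSVZ, and 0 arms were lower (0%). At an unadjusted p under 0.05 there were 53 higher arms (4.65%) and 60 lower arms (5.27%), or 113 together (9.92%). DESeq2 passed 28 arms, 11 higher and 17 lower. Without VZ_17 of set 1 the edgeR count was 24, of which 21 were higher, and it was 0 without VZ_18 of set 1, without VZ_18 of set 2 or without OSVZ_18 of set 2.

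The called arm, miR-4271-5p, was scarce. Its VZ values were 0.860 and 1.96 CPM in set 1 and 1.08 and 5.95 CPM in set 2, from 4, 21, 8 and 41 counts. The OSVZ libraries ran from 2.46 to 141 CPM with a median of 15.8. The highest was OSVZ_18 of set 2 and the OSVZ_17ext libraries of both sets lay inside the VZ range, so the groups overlapped. The difference was 3.61 ± 0.65 (edgeR adjusted p = 0.019), 2.44 in set 1 and 3.15 in set 2. Without OSVZ_18 of set 2 it was 2.50 (adjusted p = 0.387), and without VZ_18 of set 1 or of set 2 the edgeR adjusted p was 0.220 and 0.106. In CP the arm ran from 8.98 to 416 CPM.

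The description that follows is built on the 15 arms with the smallest p among those with a mean of at least 10 CPM. Beside them it covers partner arms and some abundant arms outside the 15, named for the size of their difference. These abundant arms are miR-92b-3p, miR-887-3p, let-7b-5p and miR-4286-5p. The 15 were chosen by a fit over both sets and both areas, so a sign shared between sets or areas is no separate result for them. The same holds for the arms named for their difference. Of the 15, 11 had a positive difference and 4 a negative one, and 10 passed an adjusted p of 0.05 with DESeq2. Apart from miR-4271-5p, none of the 15 passed with edgeR, where their adjusted p lay between 0.173 and 0.371. Their values are therefore given as measured, ordered by where OSVZ stood relative to VZ and CP.

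**Figure D1:**
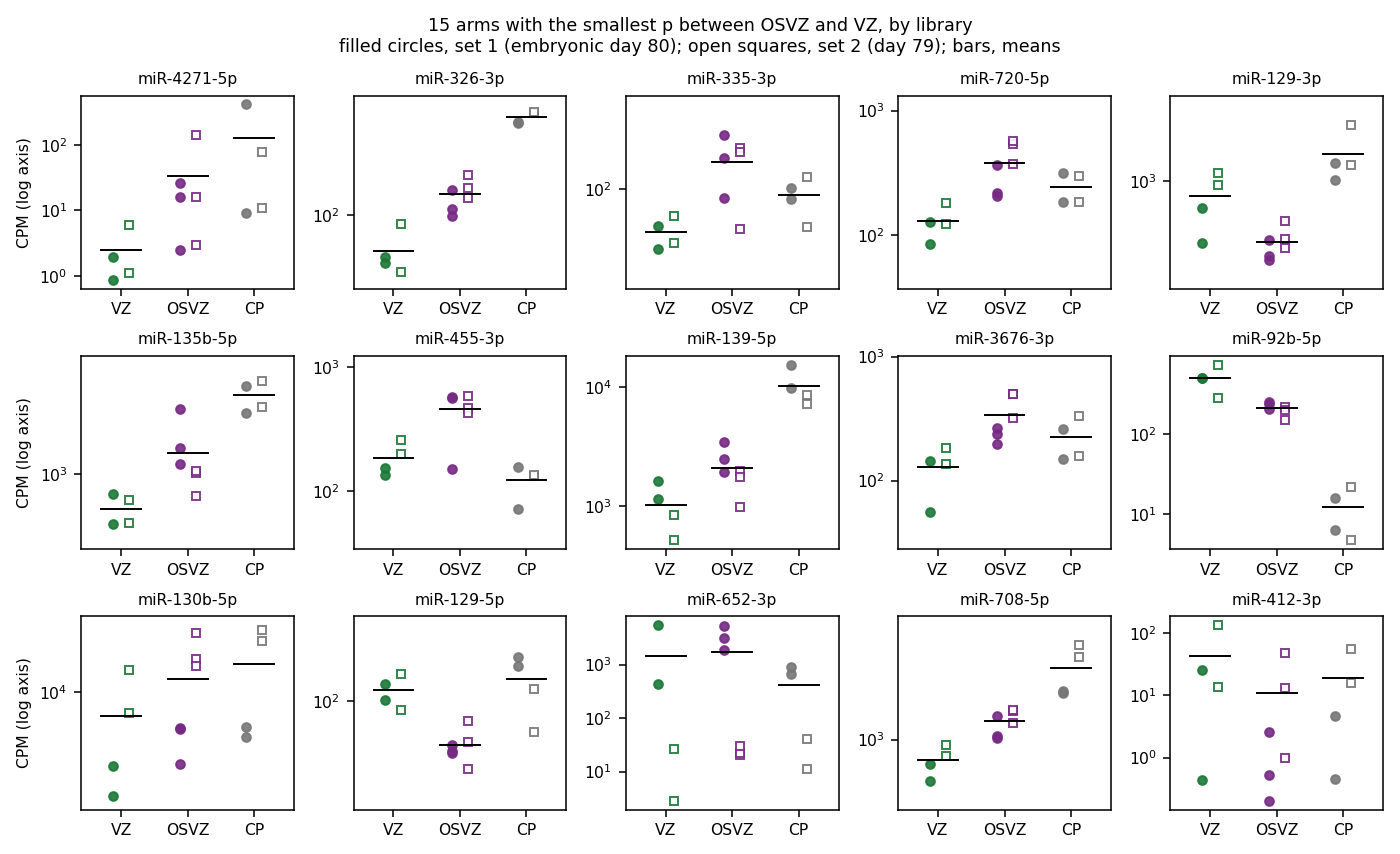
TMM-scaled CPM on a log axis of the 15 arms with the smallest p, for the libraries of VZ (n = 4), OSVZ (n = 6) and CP (n = 4), with filled circles for set 1, open squares for set 2 and bars for means. OSVZ points of miR-326-3p, miR-708-5p, miR-720-5p and miR-3676-3p lie above every VZ point, those of miR-92b-5p and miR-129-5p lie below, and miR-652-3p splits by set.

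In the first pattern the mean level was highest in VZ, lower in OSVZ and lowest in CP. The guide arm miR-92b-3p was at 52143 and 25498 CPM in set 1 and 46431 and 31245 CPM in set 2. In OSVZ it ran from 13464 to 25289 CPM with a median of 19475, and the highest OSVZ library was just under the lowest VZ library. As a share of each library's counts it took 3.36% to 6.76% in VZ and 0.763% to 2.90% in OSVZ, also without overlap. The difference was -0.96 ± 0.34 (edgeR unadjusted p = 0.00705, adjusted p = 0.382, DESeq2 adjusted p = 0.0224), with 786 ± 277 CPM in CP (SD, n = 4). By area it was -1.44 ± 0.44 in area 17 and -0.49 ± 0.51 in area 18.

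The passenger arm miR-92b-5p followed its partner, at 499 and 496 CPM in set 1 and 734 and 285 CPM in set 2. In OSVZ it ran from 152 to 251 CPM with a median of 214, below every VZ library, and CP held 4.70 to 21.8 CPM. The difference was -1.20 ± 0.38, and the log2 ratio of 3p to 5p counts averaged 6.29 in VZ and 6.47 in OSVZ, with single libraries from 5.68 to 6.77 in VZ and from 5.84 to 7.03 in OSVZ. The arm miR-887-3p was at 2393 and 1315 CPM in set 1 and 1777 and 1820.3 CPM in set 2, against 539 to 1213 CPM with a median of 1046 in OSVZ. Its groups did not overlap either (difference -0.86 ± 0.33, -0.86 in set 1 and -0.84 in set 2), and CP was lower still at 88.0 ± 4.13 CPM (SD, n = 4). For let-7b-5p, which represses cell cycle and stem cell genes in neural progenitors, VZ was at 2067 to 5210.0 CPM and OSVZ at 726 to 3829.6 CPM, and the groups overlapped (difference -0.77 ± 0.34). Its inner area 17 band stood -1.86 ± 0.52 from VZ_17 and its outer band -0.20 ± 0.52.

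In the second pattern the OSVZ mean lay between the means of VZ and CP. The arm miR-326-3p, from an intron of the beta-arrestin gene ARRB1, was at 40.9 and 45.7 CPM in set 1 and 34.6 and 85.1 CPM in set 2. OSVZ ran from 98.3 to 211 CPM with a median of 149, all above VZ under TMM and DESeq2 size factors, and CP from 555 to 678 CPM. The difference was 1.57 ± 0.37 (edgeR adjusted p = 0.173, DESeq2 adjusted p = 0.00269), 1.56 in set 1 and 1.54 in set 2, with 1.95 ± 0.57 for the inner and 1.82 ± 0.57 for the outer band of area 17. As a share of library counts it took 0.00302% to 0.0114% in VZ and 0.00557% to 0.0319% in OSVZ, with overlap. The arm miR-708-5p, from an intron of the teneurin gene TENM4, was at 639.6 and 466 CPM in set 1 and 901 and 733 CPM in set 2. OSVZ held 1036 to 1748 CPM with a median of 1446, above VZ on this scale. As a share of library counts it overlapped, with 0.0473% to 0.131% in VZ and 0.0602% to 0.265% in OSVZ, where the low OSVZ values were those of set 1. The fitted difference was 1.0 ± 0.32, 0.98 ± 0.42 in area 17 and 1.02 ± 0.49 in area 18.

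Another such arm was miR-139-5p, a member of the neuronal list encoded in the phosphodiesterase gene PDE2A. It was at 1604 and 1138 CPM in set 1 and 511 and 841 CPM in set 2, and OSVZ ran from 969 to 3459.8 CPM with a median of 1949.7. The groups overlapped when the sets were put together, and within each set every OSVZ library was above every VZ library, in set 1 only under TMM. Its difference was 1.11 ± 0.33, and CP held 10220.2 ± 3548 CPM (SD, n = 4). For miR-135b-5p the VZ values were 691 and 391 CPM in set 1 and 399 and 613 CPM in set 2 and OSVZ ran from 660.1 to 3346 CPM with a median of 1121. Under TMM only the inner band of set 2, at 660.1 CPM, fell inside the VZ range, and the difference was 1.32 ± 0.37, 1.67 in set 1 and 0.91 in set 2. The layers overlapped under DESeq2 size factors too, while by share of library counts every OSVZ library was above every VZ library. The arm miR-4286-5p had 584 to 1497 CPM in VZ and 1377 to 2494 CPM in OSVZ (difference 0.96 ± 0.34), with overlap.

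The arm miR-130b-5p shared this order of means, and its level depended strongly on the set. VZ was at 1439.9 to 2500.4 CPM in set 1 and 6692 to 14836 CPM in set 2, and OSVZ at 2637 to 5065 and 16137 to 29624 CPM. In each set all 3 OSVZ libraries were above both VZ libraries, in set 1 only under TMM, and the difference was 1.12 ± 0.34, 1.18 in set 1 and 0.96 in set 2. Its partner miR-130b-3p, which shares a seed with miR-130a and miR-301, had a difference of 0.17 ± 0.43 (interval -0.70 to 1.04). Between the sets the arms went in opposite directions, with the 3p arm at 125669 to 415690.1 CPM in set 1 and 2015 to 3174 CPM in set 2. The part of the set in the 5p result was not tested beyond the within-set values given here.

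In the third pattern the OSVZ mean stood above the means of both VZ and CP. For each of the 15 placed there, single CP and OSVZ libraries overlapped. The arm miR-335-3p, from the imprinted gene MEST, was at 50.3 and 32.8 CPM in set 1 and 36.5 and 61.0 CPM in set 2, and OSVZ ran from 47.2 to 269.7 CPM with a median of 187. Under TMM the inner band of set 2 was the lowest OSVZ library and the only one inside the VZ range. By share of library counts the inner band of set 1 lay inside that range as well. The difference was 1.75 ± 0.43 (DESeq2 adjusted p = 0.00201), and its partner miR-335-5p, at 73.0 to 630.4 CPM in VZ and 226 to 1670.5 CPM in OSVZ, differed by 1.07 ± 0.39. Against VZ_17 the outer band stood at 2.48 ± 0.65 and the inner at 0.58 ± 0.65 for miR-335-3p. The arm miR-455-3p, from the collagen gene COL27A1, was at 153 and 135 CPM in set 1 and 200.2 and 259 CPM in set 2. Of its OSVZ libraries, 5 held 429 to 587 CPM and the inner band of set 1 held 152 CPM, within the VZ range (difference 1.34 ± 0.38).

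The names miR-720 and miR-3676 cover sequences since reassigned to transfer RNAs, and their counts are reported under the deposited names. VZ values of miR-720-5p were 84.7 and 128 CPM in set 1 and 181 and 121 CPM in set 2, and OSVZ ran from 205 to 571 CPM with a median of 369, without overlap under TMM (difference 1.53 ± 0.39, 1.41 in set 1 and 1.61 in set 2). For miR-3676-3p VZ was at 56.1 to 184 CPM and OSVZ at 197 to 503 CPM, also without overlap under TMM (difference 1.33 ± 0.40). The opposite arm miR-3676-5p did not share this, at 365 to 1186 CPM in VZ and 249 to 995 CPM in OSVZ (difference -0.66 ± 0.39). The log2 ratio of 3p to 5p counts of miR-3676 averaged -2.35 in VZ and -0.48 in OSVZ.

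In the fourth pattern OSVZ had the lowest mean of the zones. Both arms of miR-129, a neuronal miRNA that acts on dendritic potassium channels, showed it. The 3p arm was at 612 and 315 CPM in set 1 and 1173 and 941 CPM in set 2, and OSVZ ran from 233 to 479 CPM with a median of 315. VZ_18 of set 1 lay inside the OSVZ range and the other VZ libraries above it (difference -1.16 ± 0.33, DESeq2 adjusted p = 0.00319). The 5p arm was at 84.8 to 164 CPM in VZ and 28.3 to 69.3 CPM in OSVZ, with overlap by library share alone (difference -1.43 ± 0.45). CP means were 1658 ± 812 CPM for the 3p and 151 ± 75.7 CPM for the 5p arm (SD, n = 4). Of the 15, miR-652-3p is described with area 17, and miR-412-3p of the 14q32 imprinted cluster was scattered, from 0.430 to 133 CPM in VZ and 0.202 to 47.0 CPM in OSVZ, and its difference of -2.94 ± 0.96 became 0.61 without VZ_18 of set 1 and VZ_17 of set 2.

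Which abundant arms were level between the layers was asked with an interval rather than with a missed p. Abundant means at least 1000 CPM on average over the 10 libraries. There were 62 such arms, 38 from 5p and 24 from 3p, and they held 93.5% to 97.0% of the counts of each library. A test of each arm against a 2-fold margin (a log2 difference of 1) in both directions passed 0 of 1139 arms after adjustment (0%, smallest adjusted p = 0.476), while 93 arms, 35 of them abundant, had an unadjusted p under 0.05. None of the 62 can therefore be called level at the adjusted threshold. The weaker criterion, a 95% interval of the difference that lies within 2-fold with no adjustment, was met by 48 arms (4.21%), of which 19 were abundant. Within 1.5-fold it was met by 0 abundant arms. The median SE of the abundant arms was 0.35, and at that SE an arm met it with a difference under 0.28 in size, while arms with a smaller SE could meet it with a larger one. The abundant count depended on single libraries. In place of 19 it was 3 without OSVZ_18 of set 2, 5 without VZ_17 of set 1, 9 without VZ_18 of set 2, 12 without the inner band of set 1, 29 without VZ_17 of set 2, and 13 to 28 without any 1 of the others. Without the replicate block it was 6.

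**Figure D2:**
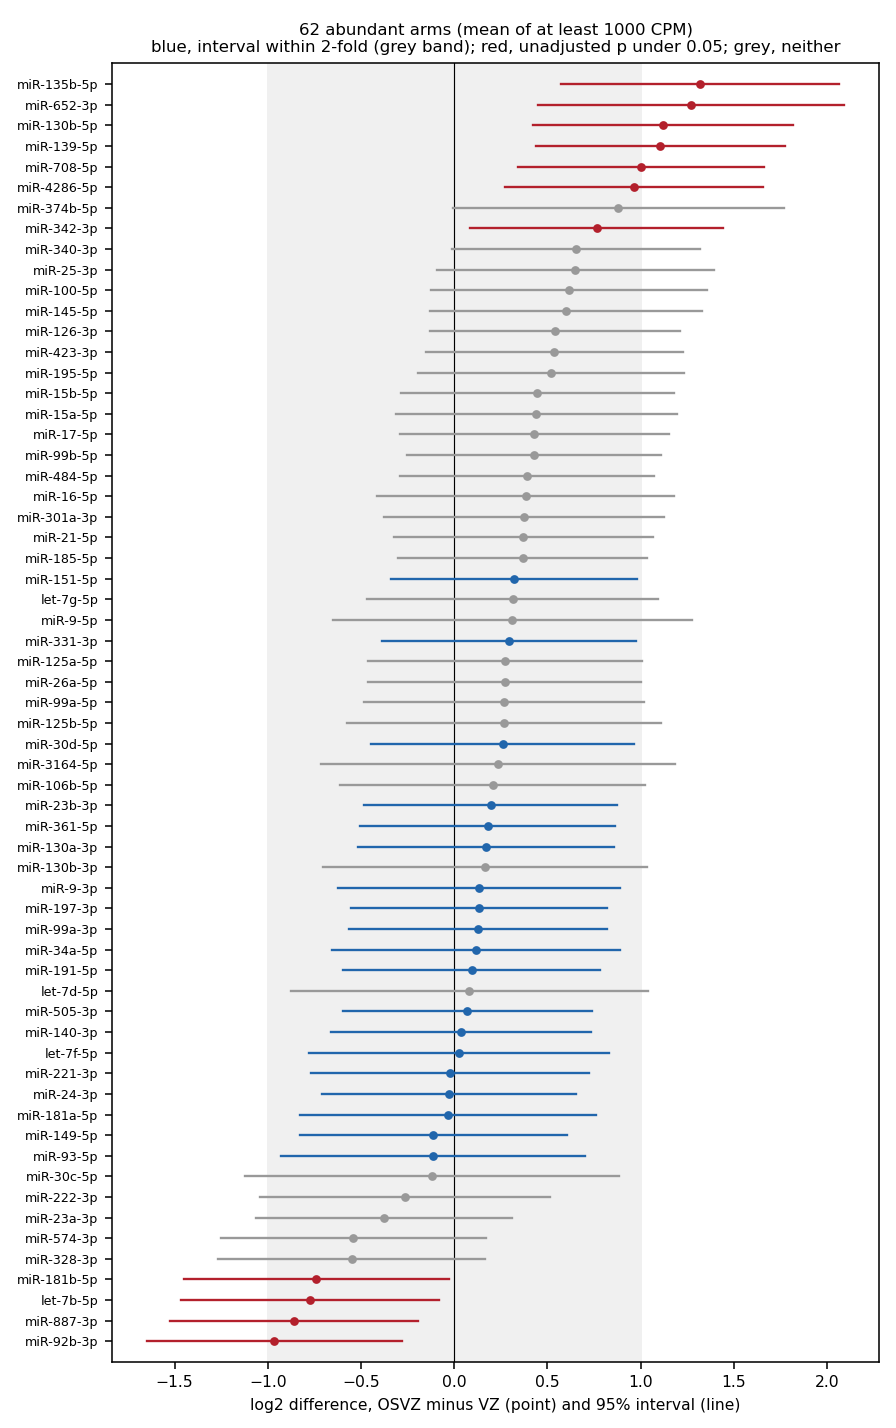
Log2 difference of OSVZ minus VZ (points) with its 95% interval (lines) for the 62 abundant arms, sorted by difference, with a grey band for 2-fold. The 19 blue intervals stay inside the band, the 11 red ones (unadjusted p under 0.05) exclude 0, and the other 32, in grey, do neither.

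The 19 arms within 2-fold took 9.66% to 18.4% of each library. Counted most was miR-149-5p, from the glypican gene GPC1, at 41599 and 24589 CPM in set 1 and 58375 and 32459 CPM in set 2 and 25956 to 46630.2 CPM with a median of 34989 in OSVZ. The VZ range enclosed all 6 OSVZ values, with a difference of -0.11 ± 0.35 (interval -0.83 to 0.61). The arm miR-191-5p was at 10524 and 7602 CPM in set 1 and 18682 and 12466 CPM in set 2 and 9863 to 16000.4 CPM with a median of 11644 in OSVZ, inside the VZ range of both sets together (difference 0.09 ± 0.34, interval -0.59 to 0.78). Within set 1 its 3 OSVZ libraries were above both VZ libraries under TMM, as were those of miR-130a-3p, miR-197-3p and miR-140-3p, and in set 2 those of miR-505-3p were below. In the other set each of these 5 arms overlapped, and by library share all 5 overlapped in both sets. By library share other arms of the 19 were apart within a set instead. In set 1 OSVZ was below VZ for 2 arms, among them miR-181a-5p, and in set 2 it was above VZ for 1, miR-151-5p. For miR-221-3p, which represses the cyclin-dependent kinase inhibitor p27, VZ ran from 9349 to 35422 CPM and OSVZ from 12509.8 to 34249 CPM, with a difference of -0.02 ± 0.37.

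The p53 target miR-34a-5p met the criterion at levels that differed 427-fold between the sets. In set 1 VZ held 31794 and 36057 CPM and OSVZ 23318 to 94425 CPM. In set 2 all 5 libraries held 91.9 to 109.5 CPM. The layers overlapped within each set, and the difference was 0.12 ± 0.38, 0.18 in set 1 and -0.07 in set 2. Its SE and interval come from a fit in which the set is a term, so the gap between sets does not widen them.

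Among the arms of brain and progenitor miRNAs, miR-9-3p was at 8385 ± 4775 CPM in VZ (SD, n = 4) and 9482 ± 4689.5 CPM in OSVZ (SD, n = 6), a difference of 0.13 ± 0.37. The progenitor-linked miR-130a-3p ran from 4792 to 7410.2 CPM in VZ and 4484 to 11597 CPM in OSVZ (0.17 ± 0.34). The neighbours miR-24-3p and miR-23b-3p, which share a cluster, differed by -0.03 ± 0.34 and 0.19 ± 0.33. Of the let-7 family, let-7f-5p was the member within 2-fold, at 0.02 ± 0.40, although single libraries spread from 628 to 6256 CPM in VZ. The miR-17 relative miR-93-5p, from the replication gene MCM7, differed by -0.11 ± 0.40.

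The remaining arms within 2-fold were miR-30d-5p, miR-181a-5p, miR-361-5p, miR-151-5p, miR-331-3p, miR-197-3p, miR-140-3p, miR-99a-3p and miR-505-3p, with differences from -0.03 to 0.32. The narrowest margins were those of miR-151-5p and miR-331-3p, whose intervals ended at 0.98 and 0.98. In every one of the 19 the VZ and OSVZ libraries overlapped. Under DESeq2 size factors 30 abundant arms met the criterion and under library totals 36, and 17 of the 19 met it under all 3 scalings, all but miR-181a-5p and miR-93-5p. None of the 19 met it in each of the 10 fits that leave out 1 library, where an arm met it in 2 (miR-93-5p) to 8 (miR-197-3p and miR-505-3p).

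**Figure D3:**
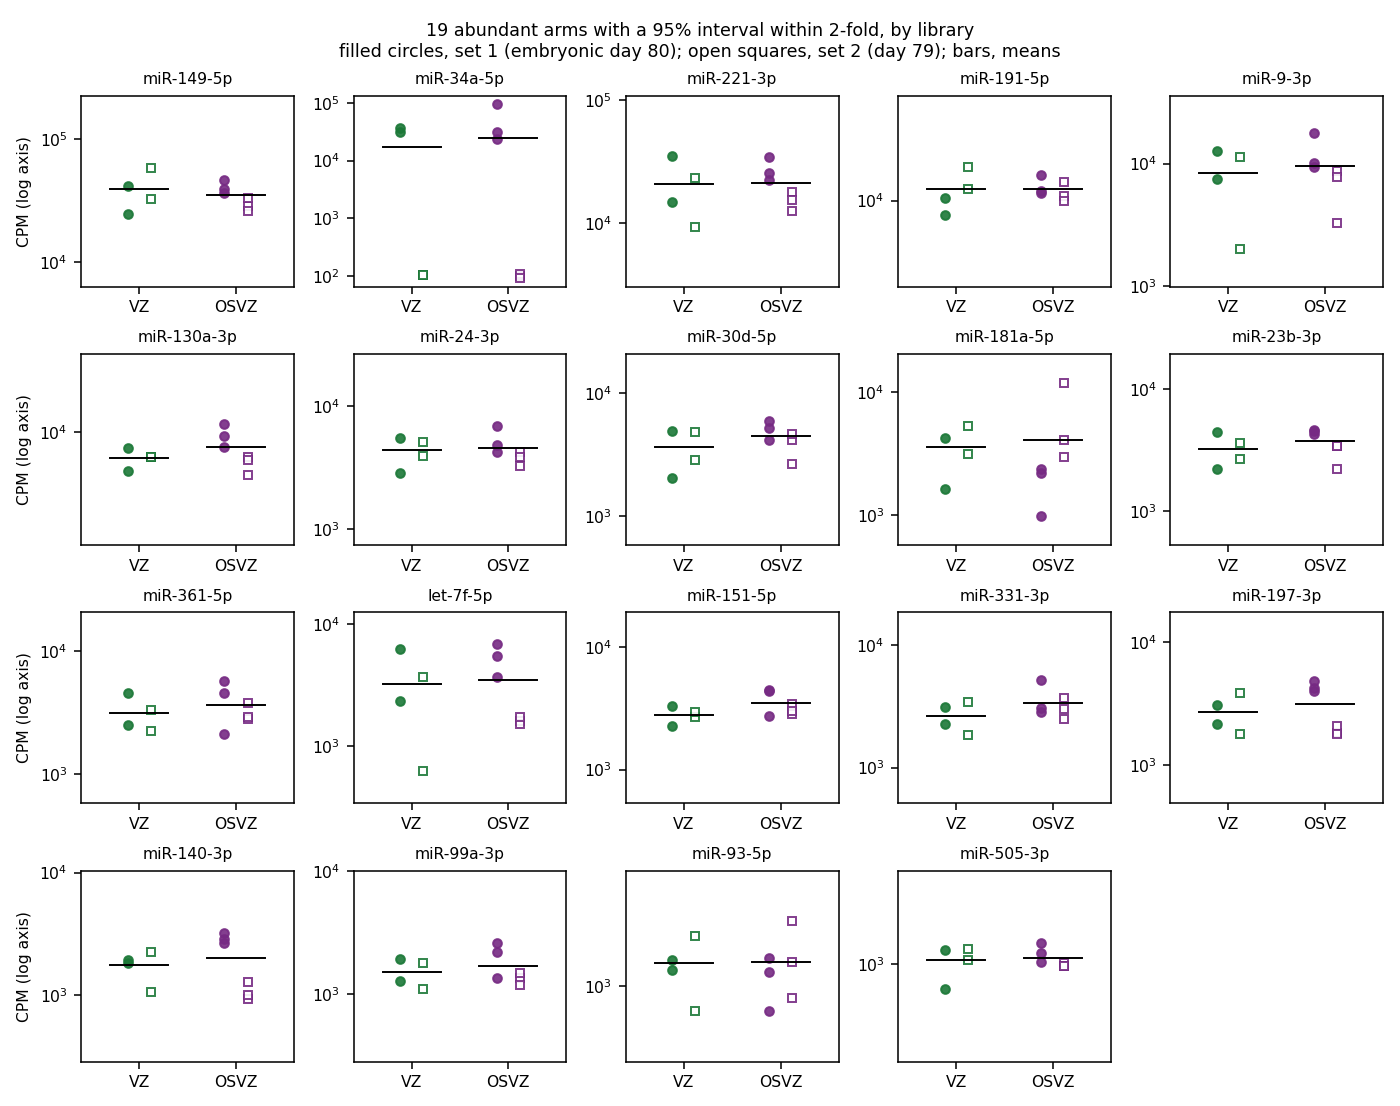
TMM-scaled CPM on a log axis of the 19 abundant arms whose 95% interval lies within 2-fold, for VZ (n = 4) and OSVZ (n = 6), with filled circles for set 1, open squares for set 2 and bars for means. The means lie close in every panel, the libraries of a layer spread widely, and miR-34a-5p splits into 2 sets.

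The most counted arms were mostly just outside the criterion under TMM. The leading arm, miR-125b-5p, was at 301729 ± 120246 CPM in VZ (SD, n = 4) and 386338 ± 156521 CPM in OSVZ (SD, n = 6), a difference of 0.27 ± 0.41 with an interval of -0.58 to 1.11. Just past 2-fold were the upper ends of miR-26a-5p (1.003), miR-125a-5p (1.01) and miR-99a-5p (1.02). Under TMM these intervals include both no difference and a 2-fold one. Under DESeq2 size factors and under library totals, miR-125b-5p, miR-130b-3p, miR-99a-5p, miR-125a-5p and miR-26a-5p all met the criterion, with differences of 0.17 and 0.10, 0.06 and -0.13, 0.16 and 0.10, 0.18 and 0.07 and 0.17 and 0.13. Whether the leading arms are counted as within 2-fold therefore depends on the scaling. For miR-16-5p the difference was 0.38 ± 0.39, and for miR-9-5p 0.31 ± 0.47, with VZ_17 of set 2 at 3291 CPM against 33015 to 58854 CPM in the other VZ libraries. Of the 10 most counted arms, miR-149-5p and miR-34a-5p were within 2-fold under TMM and miR-92b-3p was past an unadjusted p of 0.05.

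At the other end, 11 abundant arms had an unadjusted p under 0.05, 7 with OSVZ higher and 4 lower, against 9.92% of all tested arms. The 7 were miR-135b-5p, miR-652-3p, miR-130b-5p, miR-139-5p, miR-708-5p, miR-4286-5p and miR-342-3p, from an intron of EVL (0.76 ± 0.33). The 4 were miR-92b-3p, miR-887-3p, let-7b-5p and miR-181b-5p (-0.74 ± 0.35). The related miR-181a-5p was among the arms within 2-fold, and the difference between these relatives was not tested. Of the 62 abundant arms 48 had a positive difference under TMM, 43 under DESeq2 size factors and 38 under library totals, and 41 had a difference under 0.5 in size under TMM. The count of 48 fell to 30 without VZ_18 of set 1, where the median over abundant arms was -0.04 in place of 0.27, and to 25 without that library and VZ_17 of set 2 together, so no lean of the abundant arms to either layer is read from it. The arm miR-374b-5p had the next largest difference, 0.88 ± 0.44, with VZ_17 of set 2 at 41.3 CPM and the other VZ libraries at 1011 to 1422 CPM.

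The sets were compared because each gives its own layer difference. Of the 62 abundant arms 38 had the same direction in both sets, beside 56.4% of all tested arms, and of the 19 within 2-fold 7 did. The largest gap between the sets among abundant arms was that of let-7d-5p, -0.85 in set 1 and 1.82 in set 2, with VZ_17 of set 2 at 231 CPM against 2434 to 4622 CPM in the other VZ libraries. For miR-374b-5p the set values were 0.35 in set 1 and 2.37 in set 2. For miR-887-3p, miR-92b-3p and miR-708-5p the set values were -0.86 in set 1 and -0.84 in set 2, -0.83 in set 1 and -1.13 in set 2, and 1.08 in set 1 and 0.91 in set 2.

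**Figure D4:**
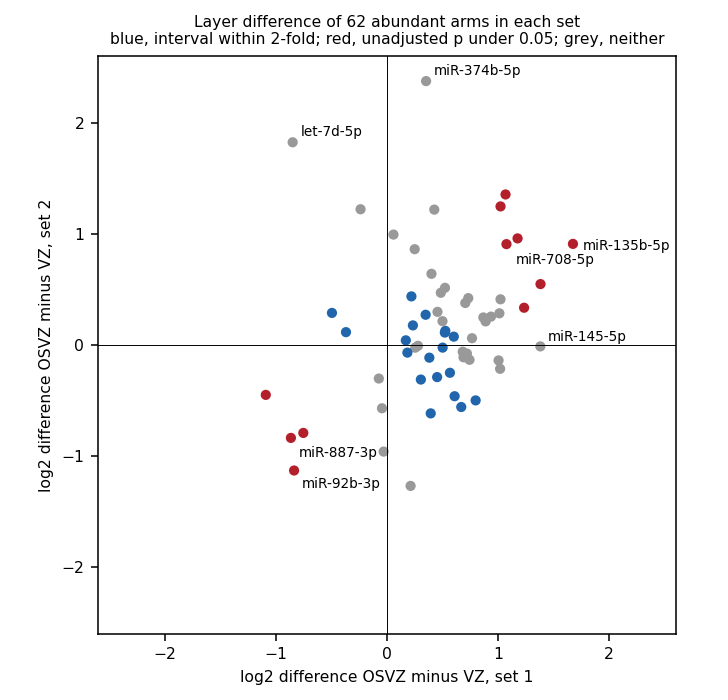
Log2 difference of OSVZ minus VZ in set 1 (x axis, 3 OSVZ against 2 VZ libraries) and set 2 (y axis, 3 against 2) for the 62 abundant arms, coloured by the interval and p of the joint fit. Red points lie in the lower left or upper right part, blue points lie around 0, and miR-374b-5p and let-7d-5p stand far above 0 in set 2.

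Levels differed between the sets by over 8-fold in 4 abundant arms, all lower in set 2. These were miR-3164-5p (1879-fold), miR-34a-5p (427-fold), miR-652-3p (160-fold) and miR-130b-3p (100.5-fold), and the sets did not overlap for 9 abundant arms. Layer differences of these arms come from both sets, with few counts in set 2 for miR-3164-5p and miR-652-3p. The germinal libraries held 21 to 183 counts of miR-652-3p in set 2 and 1988 to 58509 in set 1. The arm miR-3164-5p had 0 to 5.37 CPM in set 2, and its layer difference of 0.23 ± 0.47 was not within 2-fold.

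Area 17 and area 18 were also compared for their layer difference. In area 17, where the mean of the inner and outer bands was set against VZ_17, 1 of 1139 arms passed (0.0878%), with 77 at an unadjusted p under 0.05 (6.76%). In area 18, 0 passed (0%), with 64 at an unadjusted p under 0.05 (5.62%) and 1 by DESeq2. The arm that passed was miR-652-3p, from an intron of TMEM164. In set 1 it was at 428 CPM in VZ_17 against 5344 in the inner and 1905 CPM in the outer band, and in set 2 at 2.84 against 21.9 and 20.8 CPM. The area 18 pair showed the reverse order in set 1, 5451 CPM in VZ and 3216 CPM in OSVZ, and 26.6 and 29.9 CPM in set 2.

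The difference of miR-652-3p was 2.92 ± 0.54 in area 17 and -0.38 ± 0.60 in area 18 (edgeR adjusted p = 0.0411 and 0.939). The inner band alone passed against VZ_17 (3.38 ± 0.61, edgeR adjusted p = 0.0160), and the outer band alone did not (2.47 ± 0.62). The test of the area difference itself gave 3.30 ± 0.81 (unadjusted p = 0.000415, edgeR adjusted p = 0.377), and 0 arms passed it (0%), with 64 at an unadjusted p under 0.05 (5.62%) and 0 by DESeq2. The area 17 call was lost without OSVZ_17int of set 1, OSVZ_17ext of set 2, OSVZ_18 of set 2 or VZ_17 of set 2, and 29 arms passed in area 17 without VZ_17 of set 1.

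In the lists of related miRNAs no arm passed the adjusted test with edgeR in either direction, so they are described by counts and medians beside all tested arms, of which 598 were positive and 541 negative with a median of 0.12. The neuronal list had 12 positive and 9 negative of 21 arms and a median of 0.19. Its members miR-139-5p and miR-129-3p stood on opposite sides, and miR-138-5p held 326 ± 170.2 CPM in VZ (SD, n = 4) and 351 ± 129 CPM in OSVZ (SD, n = 6) (0.20 ± 0.33). The progenitor-linked list had 14 positive and 7 negative of 21 arms and a median of 0.24. It held miR-92b, with both arms lower, and miR-335, with both arms higher, at an unadjusted p under 0.05.

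Among growth-linked families, the miR-17 clusters had 13 positive of 20 arms (median 0.18), with the leading miR-17-5p at 7062 ± 2788 CPM in VZ (SD, n = 4) and 10332 ± 3328 CPM in OSVZ (SD, n = 6), a difference of 0.43 ± 0.35. The miR-15/16 family had 8 positive of 14 arms (median 0.39), and the miR-125 and miR-99/100 group 8 of 10 (median 0.27). The let-7 family had 12 positive of 18 arms (median 0.12), from -0.77 for let-7b-5p to 0.68 for let-7i-5p. The miR-30 family had 5 positive of 10 arms (median -0.039), the miR-26 family 2 of 4 (median 0.11) and the miR-181 and miR-135 group 5 of 11 (median -0.029). All 6 arms of the miR-29 family, known to rise with neuronal maturation, were negative (median -0.37). Its most counted arm, miR-29a-3p, was at 346 to 477 CPM in VZ and 241 to 336 CPM in OSVZ, without overlap under TMM, yet its difference was -0.37 ± 0.37 (edgeR adjusted p = 0.734).

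The imprinted cluster that lies at 14q32 in human was the list with the most members, 80 arms, of which 22 were positive and 58 negative, with a median of -0.56. At an unadjusted p under 0.05, 7 were lower and 1 higher, beside 5.27% lower and 4.65% higher of all tested arms. Of its 4 most counted members miR-409-3p was lower at an unadjusted p of 0.0227 (-1.03 ± 0.43), with 157 ± 57.1 CPM in VZ (SD, n = 4) and 80.7 ± 32.8 CPM in OSVZ (SD, n = 6). The others had differences of -0.14 ± 0.44 (miR-382-5p), -0.21 ± 0.39 (miR-376c-3p) and -0.13 ± 0.39 (miR-487b-3p). The summed level ran from 792 to 2182 CPM in VZ and from 657 to 1208 CPM in OSVZ. VZ_18 of set 1 had the highest sum, and the part of that library in the list's median was not tested.

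Marker miRNAs of other cells were measured in the same libraries. The erythroid list (miR-451, miR-144 and miR-486) had 4 negative arms of 4 (median -1.65), and its summed level was 327 CPM in VZ_18 of set 1, at most 127 CPM in the other VZ libraries and 18.7 to 103 CPM in OSVZ. In several libraries miR-144-5p was at 0. The myeloid and lymphoid list had 2 positive and 8 negative of 10 arms (median -1.07), with a summed level of 861 to 1059 CPM in VZ and 737 to 1283 CPM in OSVZ. Its member miR-223-3p, of granulocytes and monocytes, was in VZ at 216 and 389.9 CPM in set 1 and 118 and 79.7 CPM in set 2 and 39.8 to 159.6 CPM with a median of 66.1 in OSVZ (-1.33 ± 0.46, edgeR unadjusted p = 0.00675, DESeq2 adjusted p = 0.0439). Within each set its OSVZ libraries were below both VZ libraries under every scaling. With the sets together the layers were apart by library share and overlapped under TMM and DESeq2 size factors. The 2 positive arms of the myeloid and lymphoid list were miR-150-5p (0.54), its most counted arm, and miR-146a-5p (0.20).

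Vascular markers are given by their values, since no arm of these lists passed the adjusted edgeR test. Both arms of the endothelial miR-126 were positive, miR-126-3p with 1410.3 ± 668 CPM in VZ (SD, n = 4) and 2261 ± 1380.0 CPM in OSVZ (SD, n = 6) (0.54 ± 0.33) and miR-126-5p with a difference of 0.77 ± 0.36. The summed endothelial level was 980 to 2795 CPM in VZ and 1434 to 5289 CPM in OSVZ. The mesenchymal and mural list had 6 positive and 2 negative of 8 arms (median 0.64), led by miR-145-5p (0.60 ± 0.36). The oligodendrocyte list had 1 positive of 4 arms (median -0.29). Of the choroid plexus and pigment epithelium list 2 of 3 arms were positive (median 0.38). The negative arm, miR-211-5p, was its only member with an unadjusted edgeR p under 0.05 (difference -1.55, DESeq2 adjusted p = 0.0415). Its layers were apart under DESeq2 size factors and overlapped under TMM and by library share. The arm miR-204-5p was at 1906 CPM in VZ_18 of set 2 and 180.2 to 287 CPM in the other VZ libraries. The liver and muscle list had 1 positive of 4 arms (median -1.05) and summed to at most 88.1 CPM. The part of these cells in the layer differences was not tested.

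For the make-up of the libraries, the share of 5p arms and that of the 10 most counted arms were compared between the layers. Neither difference had a p under 0.05 in an exact permutation test, which does not show that the make-up was alike. Arms of 5p took 73.5% ± 8.74 of the counts in VZ (SD, n = 4) and 76.4% ± 9.76 in OSVZ (SD, n = 6). The difference was 2.95 percentage points (exact permutation test within sets, two-sided, p = 0.34, with 0.01 the smallest p that its 100 permutations allow). The 10 most counted arms together took 74.4% ± 4.52 in VZ and 74.1% ± 6.59 in OSVZ, a difference of -0.38 points (same exact test, p = 0.81). By set that difference was 1.68 points in set 1 and -2.43 points in set 2. The sets did not overlap in either measure, with a 5p share of 62.9% to 76.5% in set 1 and 80.1% to 85.0% in set 2. The 10 arms were ranked by their mean over both sets, and miR-130b-3p is 1 of them. It alone took 10.1% to 25.5% of the counts in set 1 and 0.270% to 0.440% in set 2.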

How the data were processed

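Read counts per miRNA name and arm (5p or 3p), with no normalization, were deposited by the authors as 1 table per set. Per the labels' protocols, laser-cut sections were extracted with a Qiagen micro-scale kit plus DTT, and SOLiD small RNA libraries followed. The aligner, genome build, miRNA annotation and handling of multiply matching reads are not given in the sources used here. Near-identical family members may share reads. Columns were matched to the sets by how they spell the regions. Not analysed here are 6 labelled samples and 12 value columns whose names no label carries.

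The 828 names in both tables gave 1656 arms. filterByExpr by region kept 1139, with 99.99% of the counts. All 14 libraries entered 1 edgeR 4.0.16 quasi-likelihood fit (R 4.3.3, TMM, 7 region means, set as block, 6 residual degrees of freedom), with Benjamini-Hochberg adjustment. The intervals and the margin test used 34.1 total degrees of freedom, of which 28.1 were a prior shared across arms. For OSVZ, area 18 and the averaged area 17 bands had equal weight, as did both areas for VZ. The scripts were tested on simulated counts. Levelness was tested against a margin of 1 on the log2 scale in each direction. Arms named are the 15 with the smallest p at 10 CPM or more, abundant arms within 2-fold, the 10 other abundant arms with the largest difference, up to 4 per list, and partner arms. Others were named after their values were seen. Members and lists were chosen with earlier results of these data known. The pairing by set was kept because deviations from region means correlated within a set in all 10 pairs of germinal regions (median r 0.513, range 0.191 to 0.735, across arms, which are not independent). Intervals cover the spread between libraries only.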

Additional observations from a re-analysis of the deposited data

Results flagged for a closer look

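Of 92 groups of libraries examined for a library far from the others (46 arms in each layer), 2 had one, where chance gives about 1 in 20. For miR-374b-5p, an arm encoded beside the X inactivation locus, VZ_17 of set 2 held 41.3 CPM and the other VZ libraries 1011 to 1422 CPM. The layer difference of this arm was 0.88 ± 0.44, 0.23 without VZ_17 of set 2, 0.12 without that library and VZ_18 of set 1 together, and 2.57 without VZ_17 of set 1. For miR-455-3p the inner area 17 band of set 1 held 152 CPM and the other OSVZ libraries 429 to 587 CPM, while VZ held 135 to 259 CPM.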

How the results depend on the processing

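The count of arms passing between OSVZ and VZ, 1 as reported, was 0 without the replicate block, with DESeq2 size factors in edgeR, with library totals, with only arms of 10 CPM or more, with the 10 germinal libraries alone (by region or by layer), with counts summed per set and zone, with limma voom, and with TMM from arms of at least 100 CPM (this last chosen after seeing the data). It was 28 with DESeq2, 2 without VZ_18 of set 1 and VZ_17 of set 2 together, and 0 to 24 when libraries were left out singly. In area 17, in place of 1, it was 0 under both other scalings, with arms of 10 CPM or more, without that pair of libraries and without the replicate block, 16 by DESeq2, and 0 to 29 when libraries were left out singly. In area 18 the count of 0 was 1 with DESeq2 and 0 to 1 with single libraries left out. For the difference between areas it was 3 with no filter on low counts and 0 to 11 with single libraries left out. The block changed no other call. The count of level arms, 0, was 48 (19 abundant) by the unadjusted 95% interval and 0 in the other alternatives. That interval count of 19 was 6 without the replicate block, 11 and 13 with the 10 germinal libraries alone by region and by layer, 31 with no filter on low counts, 37 with TMM from arms of at least 100 CPM, and 3 to 29 with single libraries left out. Over 2654 pairs of a named arm and an alternative the sign differed from the reported one in 246, none of them past the threshold. The call of miR-4271-5p was lost in 12, with an adjusted p of 0.0517 to 0.472 there, and 11 other calls appeared, all without VZ_17 of set 1. The cause was not tested. With a median biological coefficient of variation of 44.6% over abundant arms and 114% over all, differences under 2-fold were mostly not resolved.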

Other observations

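Under TMM the libraries of the layers did not overlap for 14 tested arms with OSVZ higher (1.23%) and 10 with OSVZ lower (0.878%), and 4 of them not described above are named here after their values were seen. The separation holds under TMM, and by library share all 4 overlapped. The arm miR-664-3p, whose hairpin overlaps a small nucleolar RNA, lay above in OSVZ, with 245 ± 96.3 CPM in VZ (SD, n = 4) and 459 ± 93.9 CPM in OSVZ (SD, n = 6), a difference of 0.98 ± 0.34. Below in OSVZ lay miR-29b-5p, with 158 ± 32.8 CPM in VZ (SD, n = 4) and 89.4 ± 30.2 CPM in OSVZ (SD, n = 6), a difference of -0.87 ± 0.45. The arm miR-383-5p was scarcer, with 29.7 ± 12.9 CPM in VZ (SD, n = 4) and 13.6 ± 4.90 CPM in OSVZ (SD, n = 6), a difference of -1.22 ± 0.62. For miR-589-3p the values were 22.8 ± 34.3 CPM in VZ (SD, n = 4) and 2.59 ± 1.40 CPM in OSVZ (SD, n = 6), a difference of -3.03 ± 1.10. On the log2 scale these differences are OSVZ minus VZ, and none of these arms passed the edgeR test, with adjusted p from 0.42 (miR-664-3p) to 0.484.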
